A study of Mus musculus with 10 samples.

Results

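The genes described here are 7 components of 4 signalling pathways: the Wnt genes Wnt10a, Fzd1 and Tcf7l1, the Notch coactivator gene Maml3, the TGF-beta and BMP genes Tgfbr3 and Nog, and Wwtr1 of the Hippo pathway. They are 7 of 21887 protein-coding genes on the assembled mouse chromosomes. They were picked by name because earlier results of these data had placed a HEB peak summit near each, so the presence and sharing of their summits describe the selection and are given without a test. For each gene, every summit within 100 kb of the gene body was collected from both deposited lists.

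The data come from Comma-Dβ cells, a cultured mouse mammary epithelial line, at passage 28. HEB-bound chromatin was sequenced from 3 libraries of cells transfected with a pool of siRNAs against Id4 (siID4) and 3 of cells given a non-targeting pool (siNT), each at 20 nM and harvested after 48 h. Another 4 libraries were input chromatin labelled as free of siRNA and antibody, which serve both arms. All libraries share the same line and passage, and the level of Id4 itself was not measured in the values used here. The deposited values are 1 list of summits per siRNA, 560 for siNT and 1489 for siID4, so no value below has an error between replicates. How deeply each library was sequenced is unknown. The lists contain no expression values, so neither the cell type nor the activity of these genes was examined.

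HEB, encoded by Tcf12, is an E protein, a class of helix-loop-helix factors that bind the DNA word CANNTG (the E-box) as dimers. ID4 belongs to the ID proteins, which pair with E proteins and keep them from DNA. Wnt ligands bind Frizzled receptors and lead beta-catenin to factors of the TCF/LEF class in the nucleus, and Wnt signals act on the basal and stem cells of the mammary gland. Notch receptors release an intracellular domain that works with RBPJ and Mastermind-like coactivators. TGF-beta and BMP ligands signal through SMAD proteins, and the Hippo kinases restrain the coactivators YAP and TAZ, which work with TEAD factors.

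Every one of the 7 genes had a siID4 summit within 100 kb, against 10.1% of all protein-coding genes, and 5 of 7 had a siNT summit there, against 5.16%. For genes of at least 100 kb, as are Tcf7l1, Maml3, Tgfbr3 and Wwtr1, the shares were 12% and 5.85%. Fzd1 and Nog had a siID4 summit and none in siNT, as did 6.12% of all protein-coding genes. Summits lay inside Tcf7l1 and Wwtr1 in siID4 and inside Tcf7l1, Wwtr1 and Tgfbr3 in siNT, against 1.96% and 0.713% of all protein-coding genes and 7.25% and 2.92% of those of at least 100 kb, as these 3 genes are. The 7 genes held 9 siID4 and 7 siNT summits, and 6 of each formed pairs no more than 200 bp apart, the distance taken as shared. Over the whole lists, 19.5% of siID4 and 51.8% of siNT summits were shared. The pairs lay at Tcf7l1 (2 pairs), Wnt10a, Maml3, Tgfbr3 and Wwtr1. A shared site within 100 kb was found for 3.04% of all protein-coding genes and 2.76% of those of at least 100 kb. The 3 siID4 summits without a partner lay near Fzd1, Tgfbr3 and Nog, and the siNT summit without one lay inside Tgfbr3.

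**Figure D1:**
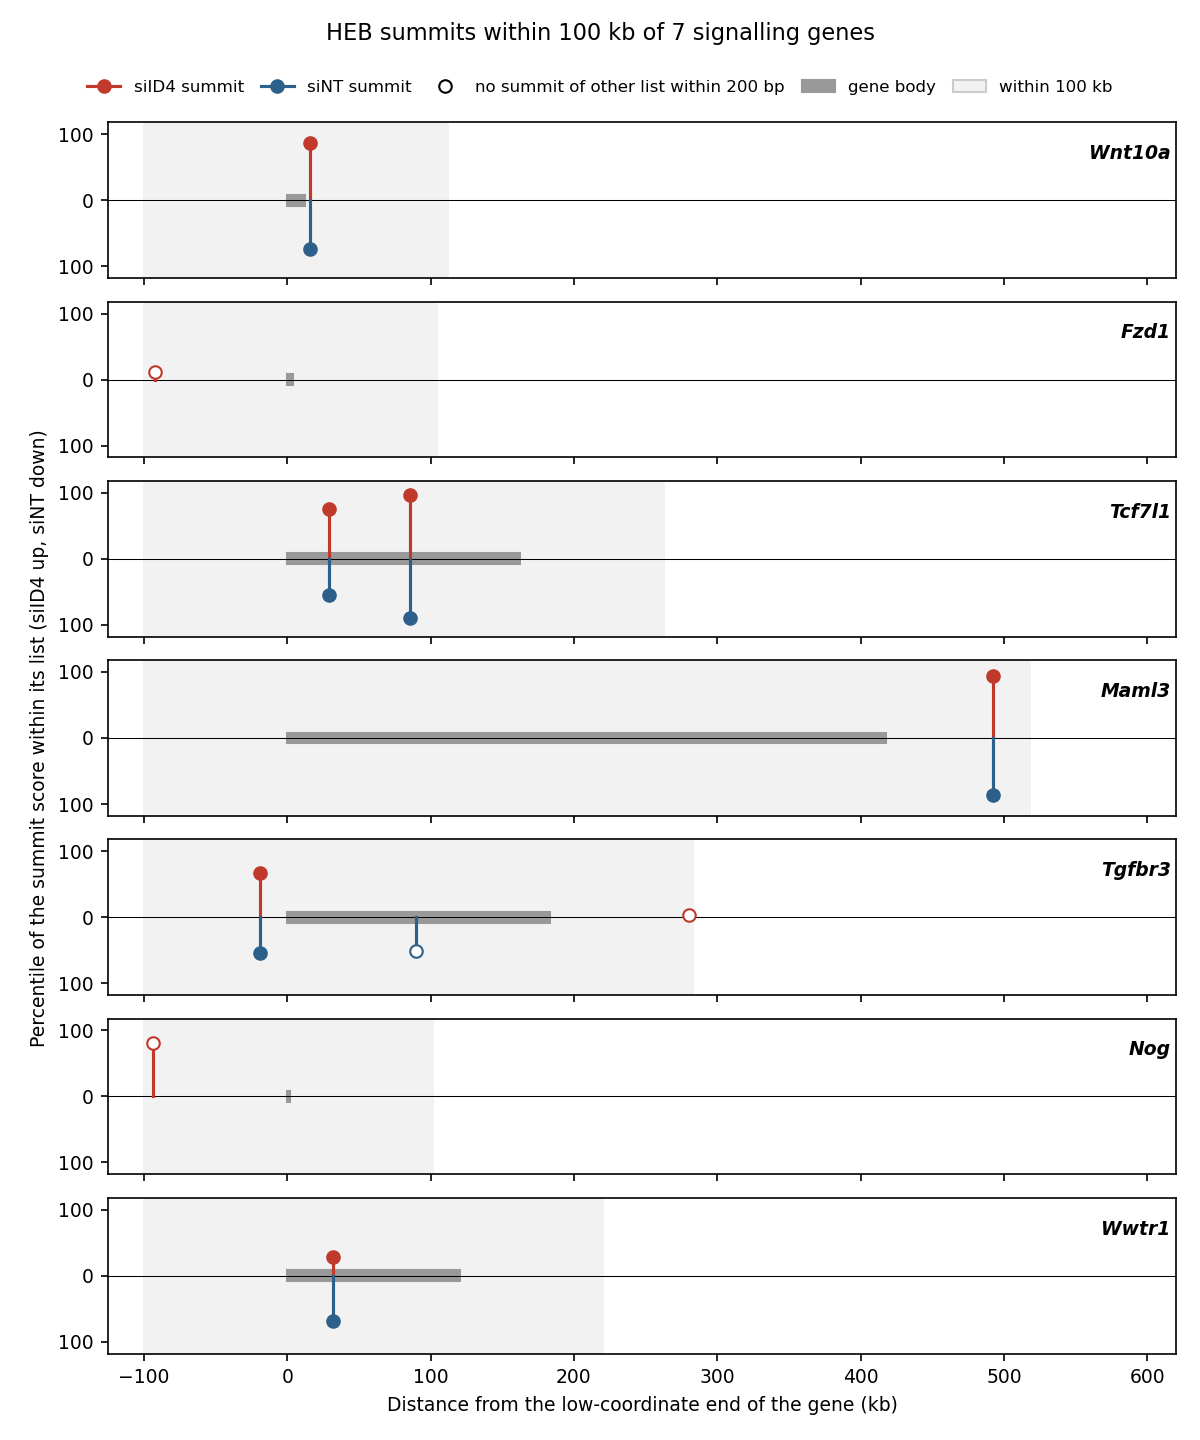
Summits within 100 kb of each gene, drawn by distance from the low-coordinate end of the gene (kb); the height of each stem is the percentile of the summit's score within its own list, siID4 upward and siNT downward, and open circles have no partner in the other list. The 6 shared pairs stand opposite each other, whereas the Fzd1, Nog and outer Tgfbr3 summits appear in siID4 and the summit inside Tgfbr3 in siNT.

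Among the start sites of the RefSeq promoter table, 1 was close to a site of these genes. The lower-scoring of the sites inside Tcf7l1 lay just after the first annotated start of Gm31391, which has 4 windows in that table. Gm31391 is a long noncoding RNA gene on the opposite strand within Tcf7l1. The siNT summit lay 214 bp and the siID4 summit 246 bp after that start. The 250 bases before the start of Gm31391 (GRCm38.p6, the assembly of mm10, plus strand, chr6:72655005-72655254) and before the start of Tcf7l1 (minus strand, chr6:72789046-72789295) are shown from that table, because the first window adjoins a shared site and the second, the gene's own promoter, had no summit. Capitals mark CANNTG, which reads the same on both strands.
Gm31391: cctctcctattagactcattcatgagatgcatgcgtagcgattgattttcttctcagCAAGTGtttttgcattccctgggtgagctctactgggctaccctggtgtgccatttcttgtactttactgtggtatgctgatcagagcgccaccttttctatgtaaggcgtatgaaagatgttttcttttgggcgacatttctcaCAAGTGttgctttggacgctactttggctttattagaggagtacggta
Tcf7l1: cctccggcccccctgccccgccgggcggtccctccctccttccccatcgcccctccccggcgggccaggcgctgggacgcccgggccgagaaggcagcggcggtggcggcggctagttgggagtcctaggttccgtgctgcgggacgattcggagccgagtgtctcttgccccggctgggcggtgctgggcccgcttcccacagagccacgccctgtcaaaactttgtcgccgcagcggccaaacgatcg
The Gm31391 window held 2 E-boxes, both spelled CAAGTG, and the Tcf7l1 window held 0. The windows of Maml3, Fzd1 and Wwtr1 held 1 (CAGCTG), 1 (CATATG) and 0. Of 32815 windows of the same length in the table, 66.2% held at least 1 CANNTG and 31.8% at least 2. These matches describe letters only, and the summits lie outside the windows. The promoter table matched 4 of the 7 genes; Wnt10a, Tgfbr3 and Nog were not matched.

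Tcf7l1 encodes a DNA-binding partner of beta-catenin that represses many Wnt targets when signalling is low. It lies on chromosome 6 from 72626371 to 72789045. Its higher-scoring site was at position 72711926 in siID4 (score 32.3, rank 57 of 1489), and the siNT summit was 6 bp from there (score 26.3, rank 61 of 560). The score is the authors' value for each peak and is ranked only within its list. This pair lay near the middle of the gene, 77.1 kb after its start, and the nearest promoter window of the table was 34.3 kb away. The site beside Gm31391 ranked lower, with a score of 8.02 in siID4 (rank 360) and 7.74 in siNT (rank 254). The 2 sites were 56.4 kb apart in the siID4 list, and each was the other's nearest summit. Tcf7l1 was the only gene of the 7 with 2 shared sites.

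Wnt10a, a Wnt ligand gene on chromosome 1 from 74792019 to 74804176, had a shared site just outside the gene. The siID4 summit was at 74808269, 4093 bp from the gene, with a score of 13.1 (rank 199), and the siNT summit was 1 bp away with a score of 12.9 (rank 149). Wnt6, a second ligand gene, lies on the far side of Wnt10a and was 22947 bp from the same siID4 summit; Wnt6 was picked for mention after its value was seen. The next siID4 summit was 512 kb from this site.

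Fzd1 encodes a Frizzled receptor and lies on chromosome 5 from 4753839 to 4758216. Its only summit was in the siID4 list at 4661282, 92557 bp from the gene on the side away from the promoter, with a score of 1.90 (rank 1321 of 1489). The lowest score of that list is 1.31, so the summit lies close to the limit of what was listed. Fzd1 was the only protein-coding gene within 100 kb of it. The nearest siNT summit was 10.2 Mb from the gene.

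Maml3, which encodes a Mastermind-like coactivator of Notch, is the longest of the 7 genes at 418 kb (chromosome 3, 51687320 to 52105319). No summit lay inside it. A shared site stood 74.9 kb before its annotated start, at 52179924 in siID4 (score 25.6, rank 84) and 23 bp away in siNT (score 22.9, rank 77). The site fell inside Gm30074, a long noncoding RNA gene. Maml3 was the nearest protein-coding gene, and Foxo1, a forkhead transcription factor gene named after its value was seen, was 88413 bp away on the other side. The next summit of the siID4 list was 2251 kb away.

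Tgfbr3 encodes betaglycan, a coreceptor that presents TGF-beta ligands to the signalling receptors, and lies on chromosome 5 from 107106567 to 107289629. It was the only gene of the 7 with an unshared summit in each list. The shared site lay outside the gene at 107087445 in siID4 (19122 bp away, score 6.35, rank 483) and 8 bp from there in siNT (score 7.74, rank 253), inside the noncoding RNA gene Gm42146. The siNT list had a further summit near the middle of the gene at 107196194 with a score of 7.15 (rank 268), and the nearest siID4 summit was 109 kb from it. The further siID4 summit, at 107386722, was 97093 bp from Tgfbr3 and scored 1.44 (rank 1446). It lay inside Brdt, a gene of the bromodomain family, with Ephx4 16791 bp away, and was the only summit of the 9 in siID4 for which another protein-coding gene was nearer. It was also the summit closest to the 100 kb limit; the first siID4 summit beyond it was 111 kb from Tgfbr3.

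Nog encodes noggin, a secreted protein that binds BMP ligands and keeps them from their receptors. The gene lies on chromosome 11 from 89300638 to 89302559 and is the shortest of the 7 at 1.92 kb. Its siID4 summit at 89207108 was 93530 bp away, with a score of 10.2 (rank 270, a score tied among 9 summits). No other protein-coding gene lay within 100 kb of that summit, and the noncoding gene Gm38759 was 81883 bp away. In the siNT list the nearest summit was 5.63 Mb from Nog. Of the 3 unshared siID4 summits near the 7 genes, this was the only one in the upper part of its list, at percentile 81.6 against 11.3 for Fzd1 and 2.82 for the outer Tgfbr3 summit.

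Wwtr1 encodes TAZ, a coactivator held back by the Hippo kinases (chromosome 3, 57455644 to 57575910). It contained a shared site at 57487502 in siID4 and 60 bp away in siNT, 88.4 kb after the nearest annotated start. The siNT score was 11.3 (rank 179 of 560) and the siID4 score 2.81 (rank 1048 of 1489, tied among 40 summits). This was the widest pair of the 6, the others lying 1 to 32 bp apart. Across all 290 shared pairs, which include pairs on unplaced scaffolds, the median distance was 13 bp. Of these pairs, 13.4% lay at least 60 bp apart. The nearest other summits were 4.21 Mb (siNT) and 4.62 Mb (siID4) from Wwtr1.

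**Figure D2:**
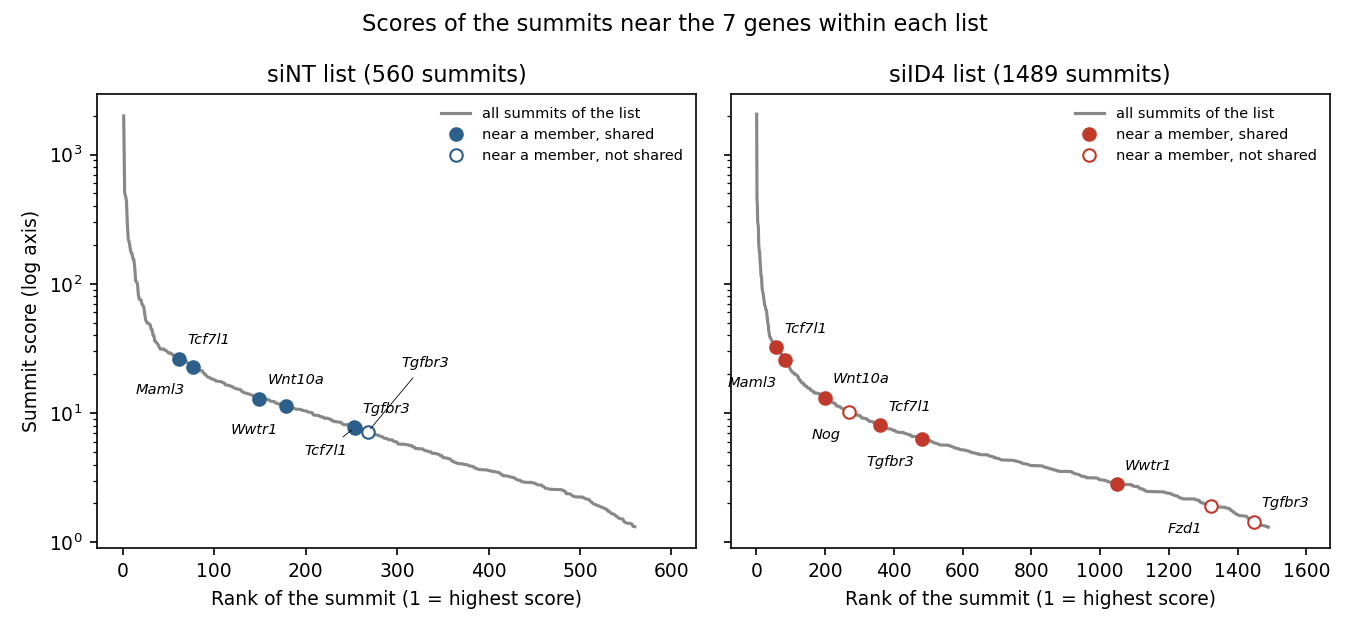
Score (log axis) against rank for every summit of the siNT list (left) and the siID4 list (right), with the summits near the 7 genes marked; filled points are shared and open points are not. The siNT points lie between ranks 61 and 268 of 560, and the siID4 points spread from rank 57 to rank 1446 of 1489.

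The summits near the 7 genes lay above the middle of the siNT list, some only just, at percentiles from 51.9 to 89.1. They were spread over the siID4 list, from 2.82 to 96.2, and the lowest there (2.82 and 11.3) were unshared summits. All 7 siNT summits scored above the median of their list, with scores from 7.15 to 26.3 and a median percentile of 68.04. In the siID4 list 6 of 9 did so, with scores from 1.44 to 32.3 and a median percentile of 75.8. Shared summits as a whole stood at a median percentile of 70.4 in siNT and 87.8 in siID4. The medians for the 7 genes also cover their unshared summits, so these values are not a like comparison.

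Because scores cannot be compared between the lists, the 6 shared sites were also ordered among the 290 shared pairs, which give both lists the same length. Those 290 include pairs on unplaced scaffolds. The higher-scoring Tcf7l1 site was 52nd in siID4 and 59th in siNT. The Maml3 site stood at 77 and 73, and the Wnt10a site at 156 and 132. The other Tcf7l1 site stood at 213 and 206, and the Tgfbr3 site at 233 and 205. For those 5 sites the percentile in siID4 minus that in siNT lay between -9.66 and 2.41, against an interquartile range of -8.62 to 8.53 over all shared pairs. The Wwtr1 site stood at 278 of 290 in siID4 and 156 in siNT, a difference of -42.1 percentile points (siID4 minus siNT) that was the 4th lowest of the 290. These orders have no replicate check.

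**Figure D3:**
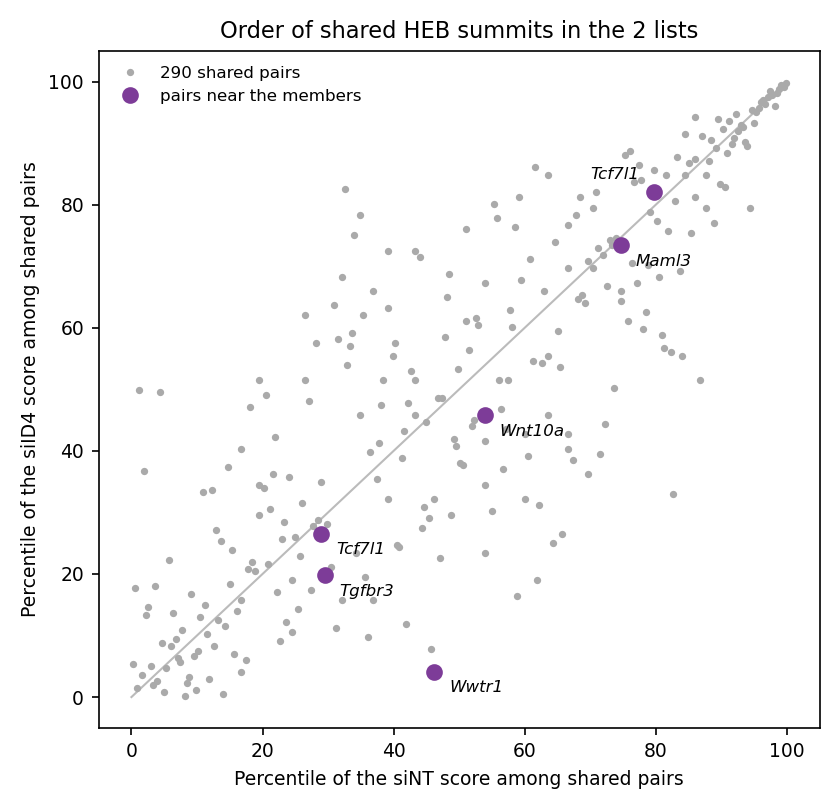
Percentile of the siNT score (horizontal) against that of the siID4 score (vertical) among the 290 shared pairs, with the pairs near the 7 genes in purple and the line of equal percentiles. The pairs of Tcf7l1, Maml3, Wnt10a and Tgfbr3 lie nearer the line, most of them below it. The Wwtr1 pair lies furthest below it, at 46.2 in siNT and 4.14 in siID4.

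The wider pathways were described with lists of 76 Wnt, 40 Notch, 54 TGF-beta and BMP, and 35 Hippo and YAP genes, 205 in all. Because the 7 genes were selected for their summits, shares are given for the other 198. A summit lay within 100 kb of 22 of the 198 in siID4 (11.1%) and of 8 in siNT (4.04%), against the 10.1% and 5.16% of all protein-coding genes given above. A shared site lay near 3 of the 198 (1.52%), against 3.04%. Each of these counts includes Wnt6, which enters only through the selected site beside Wnt10a, so they are not fully free of the selection. The 7 genes raised these counts to 29, 13 and 8 of 205 (14.1%, 6.34% and 3.90%). Neighbouring genes can count the same summit, and no test was made.

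In the Wnt list without its 3 selected genes, siID4 summits lay near 12 of 73 genes (16.4%) and siNT summits near 4 (5.48%). Wnt6 is counted in both through the selected site beside Wnt10a. Wnt3 and Wnt9b are counted through the same siID4 summit, which was nearer to another gene. Wnt3a and Wnt9a are counted through the same siID4 summit, also nearer to another gene, and through the same siNT summit, inside Wnt9a. Wnt3, Wnt9b and Wnt3a were picked for mention after their values were seen. The siID4 summits behind this count stood at a median percentile of 37.4, below the middle of their list, and 9 of the 19 lay around Notum. Those 9 weigh on the median, but Notum is only 1 of the 12 genes. Without chromosome 11 beyond 110 Mb, where Notum lies, the siID4 count was 11 of 73 (15.1%) against 9.10% of all protein-coding genes. With a score above the median of the list it was 8 of 73 (10.96%) against 6.30%. With a score of at least 5 the siID4 count was 6 of 73 (8.22%) against 5.47% of all protein-coding genes, within 50 kb it was again 6 against 6.5%, and within 10 kb it was 2 (2.74%) against 2.99%. Wls, which carries Wnt ligands to the cell surface, contained a siID4 summit with a score of 10.2. Wnt7b, a ligand gene, had siID4 summits 11565 bp and 12385 bp away with scores of 10.8 and 1.60. The receptor gene Fzd9 had one 16631 bp away (score 5.66). In the siNT list the ligand gene Wnt9a contained a summit (score 7.32), and Wnt7a had one 6208 bp away (score 3.18). None of these summits was shared. Notum, whose product inactivates Wnt ligands, had 9 siID4 summits with scores from 1.88 to 5.36 and none in siNT; it lies beyond 110 Mb of chromosome 11, where summits crowd.

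In the Notch list without Maml3, siID4 summits lay near 3 of 39 genes (7.69%) and siNT summits near 2 (5.13%). Within 50 kb the siID4 count was 3 of 39 (7.69%) against 6.50% of all protein-coding genes, and within 10 kb it was 1 (2.56%) against 2.99%. The siNT count was 1 within 50 kb (2.56%, against 3.18%) and 1 within 10 kb (2.56%, against 1.27%). Rfng, a glycosyltransferase gene that modifies Notch receptors, lies in the same crowded part of chromosome 11 and had 18 siID4 summits within 100 kb, of which 3 lay within 10 kb. Its siNT summit lay 283 bp from the gene with a score of 1.52. None of the Rfng summits was shared, and no Notch gene of the list other than Maml3 had a shared site.

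For TGF-beta and BMP signalling without Tgfbr3 and Nog, siID4 summits lay near 3 of 52 genes (5.77%) and siNT summits near 2 (3.85%), below the shares of all genes. Within 10 kb each list had a summit for 2 of 52 (3.85%), against 2.99% of all protein-coding genes in siID4 and 1.27% in siNT. Those 2 genes, Tgfb1 and Gdf5, had shared sites. The site near Tgfb1, a TGF-beta ligand gene, lay inside the neighbouring gene Ccdc97, 6817 bp from Tgfb1 in siID4, at position 25711894 of chromosome 7 (score 31.5, rank 59), with a siNT summit 14 bp away (score 14.7, rank 131). The site near Gdf5, a BMP-family ligand gene, lay on chromosome 2 at 155949542 in siID4, 4175 bp from the gene (score 16.1, rank 144), with a siNT summit 5 bp away (score 7.64, rank 257). In siID4 both ranked above the shared Tgfbr3 site (rank 483), and in siNT the Tgfb1 site did so and the Gdf5 site ranked just below it (253 for Tgfbr3).

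In the Hippo and YAP list without Wwtr1, siID4 summits lay near 4 of 34 genes (11.8%) and siNT summits near 0. The siID4 share of all protein-coding genes was 10.1%. With a score of at least 5 the siID4 count was again 4, against 5.47% of all protein-coding genes. Within 50 kb it was 3 (8.82%) against 6.50%, and within 10 kb it was again 3 (8.82%) against 2.99%. Summits of siID4 lay inside 3 of the 34, against 1.96% of all protein-coding genes and 7.25% of those of at least 100 kb; 9 of the 34 are that long. The 3 were Stk3, a Hippo kinase gene (score 6.29), Vgll4, whose product competes with YAP for TEAD factors (score 6.13), and Dchs1, a protocadherin gene upstream of the pathway (score 8.10). The nearest siNT summit was 356043 bp from the Stk3 summit, 604545 bp from the Vgll4 summit and 3930971 bp from the Dchs1 summit.

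**Figure D4:**
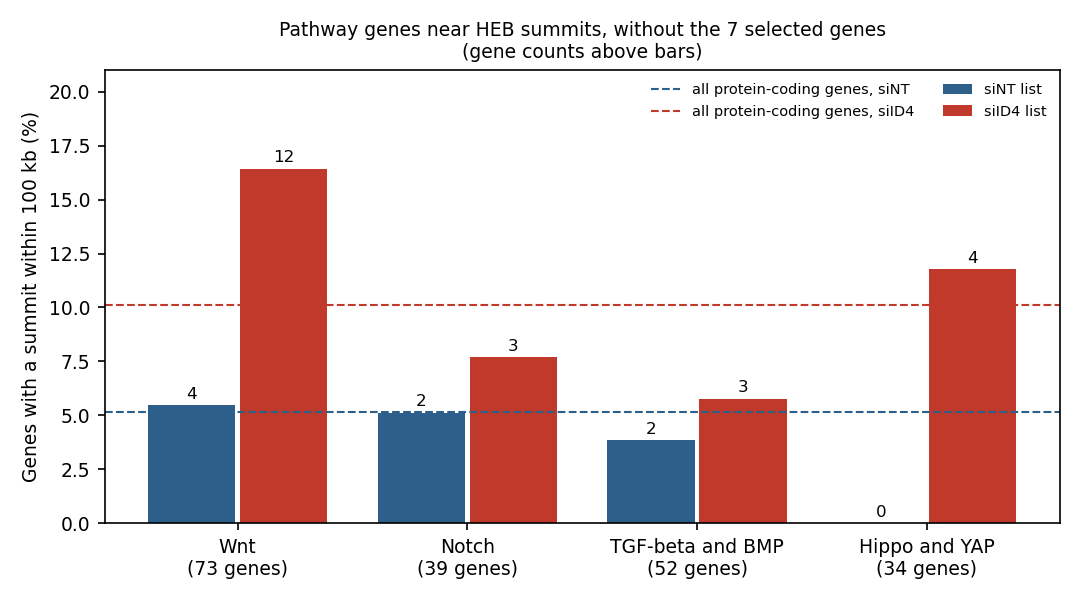
Share of the genes of each pathway list, without the 7 selected genes, with a summit within 100 kb, in the siNT list (blue) and the siID4 list (red), with gene counts above the bars and dashed lines for all protein-coding genes (5.16% and 10.1%). The siID4 bars for Wnt (12 of 73) and for Hippo and YAP (4 of 34) end above their line, and those for Notch and for TGF-beta and BMP end below it. With a score of at least 5 the siID4 counts were 4 of 34 Hippo and YAP and 6 of 73 Wnt genes. Within 10 kb they were 3 and 2. Within 50 kb the shares were close, at 8.82% (3 genes) and 8.22% (6 genes). Without chromosome 11 beyond 110 Mb they were 11.8% (4 genes) and 15.1% (11 genes). Shares of all protein-coding genes at these settings were 5.47%, 2.99%, 6.50% and 9.10%, in that order. The order of the pathways changed with the setting, rests on few genes and was not tested.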

How the data were processed

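HEB chromatin immunoprecipitation was sequenced in 3 siNT and 3 siID4 libraries, with 4 inputs. The authors deposited 1 list of 1 bp summits per siRNA, each with a score; its scale is not given, and its minimum (1.32 and 1.31) lies just above 1.30, which is -log10 of 0.05. The submitters' processing notes name mm10 and SAMtools. Aligner, peak caller, filters, any pooling of libraries and sequencing depth: not given in the sources used here, so values carry no interval or replicate error.

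Positions are 1-based. Distances ran to the gene bodies of a RefSeq table of GRCm38.p6, the assembly of mm10; all 205 symbols matched. Percentiles give the place of a score within its list, ties averaged. Promoter windows came from RefSeq. Start sites were taken 250 bases into each window. Linking was tested on simulated data. Python 3.11.15, pandas 2.3.3, numpy 2.4.6 and matplotlib 3.10.9 were used.

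The 7 genes, the pathway lists and the alternatives were chosen with earlier results of these data known. Text names the 7 genes, up to 2 nearer genes per summit, and other pathway genes with a summit within 10 kb or for which they are the nearest protein-coding gene. Wnt6, Wnt3, Wnt9b, Wnt3a and Foxo1 were added after their values were seen. No test was run: neither list has values per library.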

Additional observations from a re-analysis of the deposited data

How the results depend on the processing

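Counts were recomputed with other link distances, score limits, merging and sharing distances; leaving out chromosome 11 beyond 110 Mb, or the 7 genes from the pathway lists, was chosen after seeing the data. The siID4 summits of the 7 genes went from 9 to 5 within 50 kb and 4 within 10 kb. The pathway genes with a siID4 summit, the 7 genes included, went from 29 to 19 and 11. The share of all protein-coding genes with a siID4 summit also fell, from 10.1% to 6.5% and 2.99%. Without the 7 genes, pathway genes with a siNT summit went from 13 to 8. The member was the nearest gene for 8 siID4 summits among protein-coding genes and for 5 among all annotated genes. The other 28 recomputed main counts stayed within 1.5 times, and of the counts for single genes and pathways 26 moved further and 114 did not. No paired analysis was possible because each list covers 3 libraries and no test was run; leaving out a replicate could not be run for the same reason. Unknown depth limits every comparison between the lists.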
